A study of Mus musculus with 12 samples.

Results

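The 9 genes described here, Ncan, Bcan, Vcan, Acan, Cspg5, Tnc, Tnr, Hapln1 and Ptprz1, encode the chondroitin sulfate proteoglycans of neural tissue, the tenascins they bind and a link protein. They were taken by symbol from count tables that list 24525 genes, by no threshold on a measured value, and all 9 symbols were found. The libraries are input RNA-seq of neural stem/progenitor cells (NSPCs) grown as neurospheres, which are floating cultures, from forebrain of C57BL/6 embryos at E14.5. There were 3 wild-type and 3 Ythdf2-/- samples at passage 1, all kept in 20 ng/ml EGF and 10 ng/ml bFGF with N2 and B27 supplements and given no other treatment. The Ythdf2-/- allele lost the 5′ UTR and exon 1 after a ubiquitous Cre removed the stretch between LoxP sites, so every cell of the embryo lacked it. Ythdf2 is a reader protein that binds m6A, a methylated adenosine in mRNA, and promotes decay of the bound transcript. The study names its replicates biological, and the labels do not say which embryos or how many gave each culture.

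Lecticans (Ncan, Bcan, Vcan and Acan) are secreted proteoglycans that bind hyaluronan at one end and tenascins at the other, and link proteins such as Hapln1 fasten them to hyaluronan. Their chondroitin sulfate chains, with those of Cspg5 and the receptor phosphatase Ptprz1, bind growth factors and receptors and affect adhesion, migration and neurite growth. In the developing forebrain Tnc and Ptprz1 are typical of radial glia and other neural progenitors, Bcan and Ncan are abundant in glial precursors, Tnr is typical of the oligodendrocyte lineage and some neurons, and Acan and Hapln1 are best known from perineuronal nets of mature neurons.

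Since Ythdf2 reads m6A, the transcripts were searched for GGACT, the core of the usual m6A sequence motif, on the sense strand of 1 GENCODE M21 transcript per gene. For 4 genes on which the results below turn, 1 match is shown, with the motif in capitals, 5′ to 3′ along the transcript. It is the match closest to the stop codon among those whose printed window lies within 1 exon. Ncan is the member that passed the low-count filter and whose genotypes did not overlap, Bcan has the highest level per length, and Tnc and Tnr lie farthest apart.
Ncan: gacagtagagagGGACTtccagtggacag
Bcan: gtgagaggggtgGGACTgaaattcagagg
Tnc: aaatggacgtgaGGACTtctatcgcaact
Tnr: caacgtgactaaGGACTccctgacggtgt
In GRCm38 the Ncan window is the minus strand of chr8:70100247-70100275, in coding exon sequence 490 bases from the stop codon. The Bcan window is the minus strand of chr3:87987765-87987793, in the 3′ UTR 90 bases past the stop codon. The Tnc window is the minus strand of chr4:63965635-63965663, in coding sequence 505 bases from the stop codon. The Tnr window is the plus strand of chr1:159888288-159888316, in coding sequence 1447 bases from the stop codon.

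The whole Ncan transcript held 11 matches, or 1.53 per kb, and that of Bcan 4, or 1.27 per kb. Tnc held 17 (2.39 per kb), Tnr 15 (1.23 per kb), Acan 23 (3.13 per kb), Vcan 11 (0.885 per kb), Cspg5 7 (0.89 per kb), Ptprz1 7 (0.868 per kb) and Hapln1 2 (0.35 per kb). Of 12288 genes tested that had a transcript, 93.4% held at least 1 match, with a median of 1.04 per kb and quartiles of 0.651 and 1.498. Acan, Tnc and Ncan were thus above the upper quartile and Hapln1 below the lower. A match is a run of letters and not a measured m6A site, and the m6A-IP libraries were not analysed here.

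Some facts of the whole series bear on each result. The libraries held 11029827 to 13185778 counted reads. Ythdf2 itself had 840, 961 and 999 reads in wild type and 137, 198 and 138 in Ythdf2-/-, or 78.9 ± 10.9 and 12.5 ± 1.91 CPM (reads scaled by library size to a common total; SD, n = 3 each). Its log2 fold change was -2.66 (edgeR's quasi-likelihood test, Benjamini-Hochberg adjusted p = 0.0547). Wild-type replicate 3 stood apart from the other 5 libraries, at 91.0 on the first principal component against -30.6 to -6.04. Reads of 4 Y-linked genes (Ddx3y, Eif2s3y, Kdm5d and Uty) numbered 1111, 1638 and 2147 in wild-type replicates 1 and 2 and Ythdf2-/- replicate 3, and 0 to 2 in the other 3 libraries, so the genotypes are unevenly split by it and the labels give no sex. The neural progenitor markers, of which Fabp7 and Vim had the highest RPKM, were tested in full, 10 of 10, and summed to 8031 to 9235 CPM in 5 libraries and 5628 CPM in wild-type replicate 3. Nes, Vim and Fabp7 were lowest in that library. Sox2, Sox9, Pax6, Hes1, Hes5 and Prom1 were highest there, so these markers did not fall as a set. Sox2 was at 551 CPM there against 316 to 426 CPM elsewhere. The microglia and macrophage markers, of which Cx3cr1 had the highest RPKM of those tested, summed to 1.13 to 1.56 CPM, and the endothelial ones, of which Kdr was the single one tested, to 1.01 to 3.51 CPM. The mesenchymal and pericyte markers, with Foxc1 and Pdgfrb highest in RPKM, summed to 15.6 to 44.0 CPM.

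The members summed to 6203, 6329 and 6798 CPM in wild type and 6838, 6442 and 8572 CPM in Ythdf2-/-, so their sums overlapped. Per length, as CPM divided by transcript length in kilobases (RPKM), the order of the mean levels over the 6 libraries was Bcan 444, Ptprz1 430, Ncan 143, Cspg5 134, Tnc 84.1, Tnr 31.5, Vcan 19.9, Hapln1 0.126 and Acan 0.0729. Neighbours in this order overlapped in their ranges over libraries except at 2 steps. The lowest Ptprz1 library, at 383 RPKM, was above the highest Ncan library, at 217 RPKM. In the deposited FPKM, which rest on far fewer reads, this step was not seen, since Ncan averaged 21.7 and Ptprz1 18.5 FPKM with overlapping libraries. The lowest Vcan library, at 10.3 RPKM, was above the highest Hapln1 library, at 0.509 RPKM. Bcan and Ptprz1 stood at the 99.1 and 99.0 percentiles of the genes tested, Ncan and Cspg5 at 96.7 and 96.4, and Tnc at 93.4. Tnr (79.2) and Vcan (67.5) were nearer the middle. Levels per length depend on the transcript taken. For Vcan the deposited transcript length ran from 3745 to 12432 bases between libraries, and with the exon union of the annotation its mean was 10.1 RPKM. For Tnr and Cspg5 the deposited lengths were 5395 and 3790 bases, while the GENCODE M21 transcripts searched above were 12202 and 7868 bases long.

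**Figure D1:**
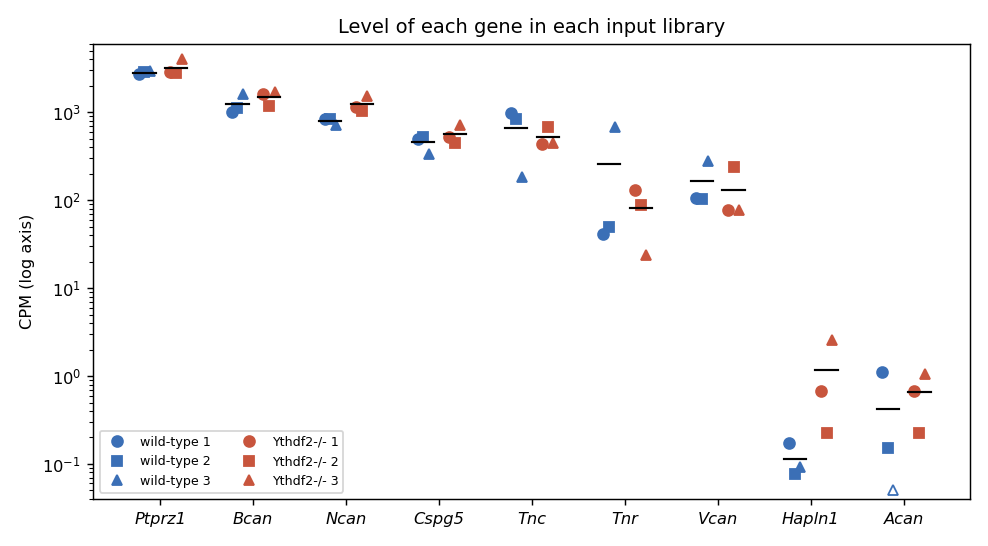
CPM (log axis) of the 9 genes in each of the 3 wild-type (blue) and 3 Ythdf2-/- (red) input libraries, with the symbol giving the replicate number, black bars the group means and an open symbol at the axis floor a library with 0 reads. Ptprz1, Bcan, Ncan and Cspg5 stay within 2.2-fold over all libraries, Tnc, Tnr and Vcan spread further, and Hapln1 and Acan lie at or below 2.58 CPM.

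Ncan, encoding neurocan, was the only member passing the low-count filter whose genotypes did not overlap. It had 835, 846 and 720 CPM in wild-type replicates 1, 2 and 3 and 1149, 1027 and 1552 CPM in Ythdf2-/- replicates 1, 2 and 3. All 3 Ythdf2-/- libraries were above all 3 wild-type libraries, and Ythdf2-/- replicate 3 was the highest. The means were 801 ± 70.2 and 1243 ± 275 CPM (SD, n = 3 each), 1.55 times as high in Ythdf2-/-. The log2 fold change was 0.63 (standard error 0.214, 95% interval 0.12 to 1.15, unadjusted p = 0.0233, adjusted p = 0.999, edgeR's quasi-likelihood test with Benjamini-Hochberg adjustment). The exact permutation test (2-sided) gave p = 0.1, the smallest that 3 libraries against 3 allow. Without wild-type replicate 3 the log2 fold change was 0.56 (unadjusted p = 0.0327, edgeR). Leaving out wild-type replicate 1 gave 0.67, leaving out wild-type replicate 2 gave 0.68 and leaving out Ythdf2-/- replicate 3 gave 0.44, with unadjusted p = 0.0560, 0.0563 and 0.0707 from edgeR. With the replicate number as a block beside genotype it was 0.61 (unadjusted p = 0.0765, edgeR). On the deposited FPKM, with pseudocounts of 1 and 0.1, it was 0.90 and 0.94 (unadjusted p = 0.0506 and 0.0501, limma). Among libraries with Y-linked reads the difference in log2 mean CPM was 0.88, and among those without it was 0.60. Ncan lies on the minus strand of chr8:70093085-70120863 in GRCm38.

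Bcan, encoding brevican, had 1016, 1118 and 1625 CPM in wild type and 1612, 1180 and 1726 CPM in Ythdf2-/-. The groups overlapped because wild-type replicate 3 was the second highest of the 6 libraries. The log2 fold change was 0.27 (standard error 0.263, 95% interval -0.37 to 0.90). Without wild-type replicate 3 it was 0.50 with an interval of 0.01 to 0.99 (unadjusted p = 0.0474, adjusted p = 0.298, edgeR's quasi-likelihood test). The difference of log2 mean CPM was 0.69 among libraries with Y-linked reads and -0.22 among those without, where wild-type replicate 3 is the sole wild-type library.

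Vcan, encoding versican, the lectican most typical of early embryonic matrix, had 106, 104 and 283 CPM in wild type and 76.6, 241 and 78.2 CPM in Ythdf2-/-. A single library of each genotype was high, wild-type replicate 3 and Ythdf2-/- replicate 2, and the other 4 lay between 76.6 and 106 CPM. The log2 fold change of -0.32 had a 95% interval of -1.79 to 1.16, and without wild-type replicate 3 it turned to 0.33. The difference of log2 mean CPM was -0.43 among libraries with Y-linked reads and -0.83 among those without. These libraries were also the ones at the ends of the astroglial marker sum, 9644 CPM in wild-type replicate 3 and 1798 CPM in Ythdf2-/- replicate 2 against 3525 to 5059 CPM in the rest. Of these 10 markers 5 were higher in Ythdf2-/- and 5 lower (median log2 fold change 0.03), and Gfap and Sparcl1 had the highest RPKM. Gfap had 437, 625 and 3047 CPM in wild type and 127, 87.7 and 5.55 CPM in Ythdf2-/-, with no overlap (log2 fold change -4.22, standard error 1.30, unadjusted p = 0.0166, adjusted p = 0.999, edgeR). Sparcl1 had 1083, 1474 and 1800 CPM in wild type and 1241, 149 and 997 CPM in Ythdf2-/-, which overlap. The part of those cells in the values of Vcan or the other members was not tested. Vcan and Hapln1 are neighbours on chromosome 13, at chr13:89655309-89743027 on the minus strand and chr13:89540529-89611832 on the plus strand.

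Acan, encoding aggrecan, had 13, 2 and 0 counted reads in wild type and 8, 3 and 13 in Ythdf2-/-. The link protein gene Hapln1 had 2, 1 and 1 counted reads in wild type and 8, 3 and 32 in Ythdf2-/-. Both were below the filter on low counts and were left out of the main test. In the fit of all 6 libraries without a filter, Acan had an unadjusted p = 0.600 and Hapln1 an unadjusted p = 0.0152 (adjusted p = 0.998 and 0.996, edgeR). The 3 Ythdf2-/- libraries of Hapln1 lay above its 3 wild-type libraries, but the lowest Ythdf2-/- library held 3 reads and the highest wild-type library 2, a gap within counting error, and 32 of its 43 Ythdf2-/- reads came from replicate 3.

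Cspg5, encoding neuroglycan C, a membrane proteoglycan with an EGF-like domain, had 503, 528 and 336 CPM in wild type and 525, 445 and 715 CPM in Ythdf2-/-. Wild-type replicate 3 was lowest, Ythdf2-/- replicate 3 highest, and the other 4 libraries were interleaved. The log2 fold change was 0.30 (standard error 0.261, 95% interval -0.33 to 0.93), and 0.12 without wild-type replicate 3. The difference of log2 mean CPM was 0.47 among libraries with Y-linked reads and 0.53 among those without, and with a Y-linked term beside genotype the log2 fold change was 0.50 (unadjusted p = 0.0147, adjusted p = 0.338, edgeR).

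Ptprz1, a receptor phosphatase whose extracellular part is itself a chondroitin sulfate proteoglycan, had 2707, 2845 and 2967 CPM in wild type and 2904, 2774 and 4028 CPM in Ythdf2-/-. Only Ythdf2-/- replicate 3 left the narrow range of the other 5 libraries. The log2 fold change was 0.19 (standard error 0.226, 95% interval -0.36 to 0.73), and 0.0002 without Ythdf2-/- replicate 3. The difference of log2 mean CPM was 0.54 among libraries with Y-linked reads and -0.06 among those without. Ptprz1 also held the most even share of the members' summed reads, 42.5% to 47.0% in every library.

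Tnc, encoding tenascin-C, had 992, 839 and 184 CPM in wild type and 440, 685 and 445 CPM in Ythdf2-/-. Wild-type replicates 1 and 2 were above all 3 Ythdf2-/- libraries, and wild-type replicate 3 was below them. With all 6 libraries the log2 fold change was -0.36 (standard error 0.589, 95% interval -1.79 to 1.06). Without wild-type replicate 3 it was -0.81, with an interval of -1.36 to -0.25 (unadjusted p = 0.0116, adjusted p = 0.212, edgeR). Leaving out wild-type replicate 1 instead gave 0.03. The difference of log2 mean CPM was -1.04 among libraries with Y-linked reads and 1.61 among those without, and the difference between these values was not tested. Tnc shares 969 exonic bases with 8030451A03Rik on the opposite strand, and the strand setting of the counting is not given in the sources used here, so its count is uncertain to that extent.

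Tnr, encoding tenascin-R, spread most among the 7 genes that passed the filter, with 41.6, 49.1 and 684 CPM in wild type and 130, 89.5 and 24.1 CPM in Ythdf2-/-. Wild-type replicate 3 was 28.4 times as high as Ythdf2-/- replicate 3, and the Ythdf2-/- libraries surrounded wild-type replicates 1 and 2. The log2 fold change of -1.67 (standard error 1.21, 95% interval -4.61 to 1.27) turned to 0.84 (interval -0.70 to 2.39) without wild-type replicate 3. The difference of log2 mean CPM was -0.91 among libraries with Y-linked reads and -2.64 among those without, and with the Y-linked term the log2 fold change was -1.80 (unadjusted p = 0.00452, adjusted p = 0.264, edgeR). In wild-type replicate 3 the 12 markers of the oligodendrocyte lineage, of which Olig1 and Olig2 had the highest RPKM, summed to 5447 CPM against 1830 to 2245 CPM in the other 5, and the neuronal markers, of which Map2 and Tubb3 had the highest RPKM, to 2147 against 1128 to 1364 CPM. Map2 was at 1440 CPM in that library against 1024 to 1223 CPM elsewhere. Dcx, named after its values were seen, had 315 CPM in wild-type replicate 3 and 8.36 to 13.1 CPM elsewhere. Stmn2, Snap25 and Neurod1 lay within the range of the other libraries there, at 1.46, 9.79 and 0.549 CPM. Of 11 neuronal markers tested, 3 were higher and 8 lower in Ythdf2-/-. Their median log2 fold change was -0.45, and 0.35 without wild-type replicate 3. Olig1 and Olig2 themselves were at 547 and 324 CPM in wild-type replicate 3, against 874 to 1250 and 417 to 514 CPM in the others. The part of these cells in the Tnr level was not tested, and in bulk RNA fewer cells of a type and less RNA per cell cannot be told apart.

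**Figure D2:**
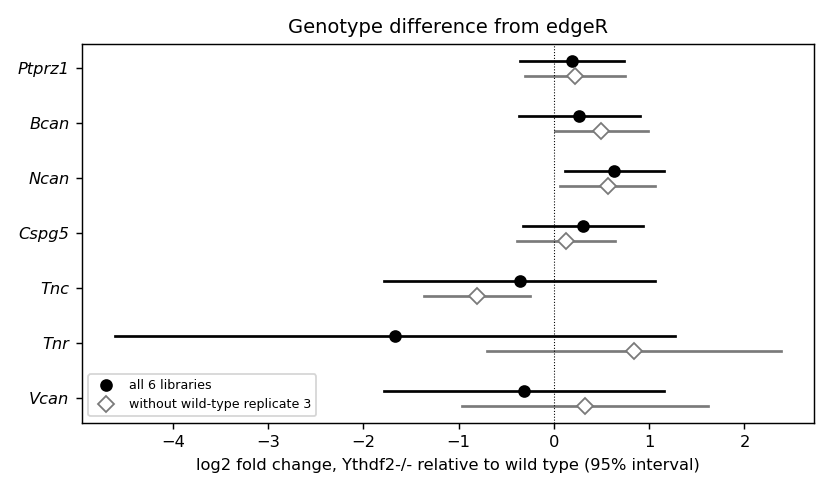
Log2 fold change of the 7 tested genes (Ythdf2-/- relative to wild type) with 95% intervals from edgeR, with all 6 libraries (black) and without wild-type replicate 3 (grey). The interval for Ncan lies above 0 in both fits, those for Bcan and Tnc leave 0 in the fit of 5 libraries, and Tnr and Vcan change sign.

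Of the 9 members, 7 passed the filter on low counts. By edgeR's quasi-likelihood test 0 of them had an adjusted p under 0.05, against 0 of 13112 genes (0.00%), and 1, Ncan, had an unadjusted p under 0.05, against 476 genes (3.63%). The groups did not overlap in 1 of 7, again Ncan, against 1332 genes (10.2%) in either direction and 687 (5.24%) higher in Ythdf2-/-. The median log2 fold change of the 7 was 0.19, and that of all genes tested was -0.01. Leaving out Ythdf2-/- replicate 3 gave a members' median of 0.0002, and leaving out Ythdf2-/- replicate 2 gave 0.36. Without wild-type replicate 3, 8 members passed the filter, Acan included, and 3 of them (Ncan, Bcan and Tnc) had an unadjusted p under 0.05, where 16.6% of 13283 genes did. At an adjusted p under 0.05 that fit called 0 members and 2 genes (0.0151%) in all. The adjusted p of Ncan, Bcan and Tnc was 0.999 in the fit of all 6 libraries. Over the other settings tried the lowest was 0.0603 for Ncan and 0.0604 for Bcan and Tnc, each from limma-voom with sample quality weights, and the highest was 1.

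As log2 CPM centred on each gene's mean over the 6 libraries, Ncan and Cspg5 differed by a root mean square of 0.207 and Bcan and Ptprz1 by 0.220, the closest pairs, and Ncan and Ptprz1 by 0.250. Tnc and Tnr, at 2.22, were the farthest pair. Per length, Tnc was 18.1, 12.98 and 0.205 times as high as Tnr in wild-type replicates 1, 2 and 3 and 2.57, 5.82 and 14.0 times in the Ythdf2-/- replicates. Wild-type replicate 3 was thus the library in which Tnr exceeded Tnc. In that library Tnr took 10.1% of the members' summed reads against 0.282% to 1.90% elsewhere, and Tnc took 2.71% against 5.19% to 16.0%. The lecticans also shifted among themselves. In CPM, Ncan was 7.87, 8.12 and 2.55 times as high as Vcan in wild type and 15, 4.26 and 19.9 times in Ythdf2-/-, and these ranges overlapped.

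**Figure D3:**
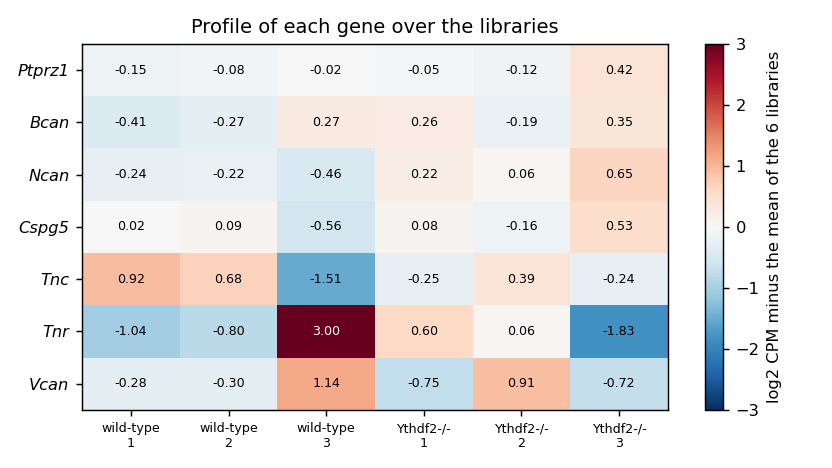
Log2 CPM of the 7 tested genes minus each gene's mean over the 6 libraries, by library, with red above and blue below the mean and the value in each cell. Wild-type replicate 3 holds both the highest cell, 3.0 for Tnr, and one of the lowest, -1.51 for Tnc, while Ncan is below 0 in all 3 wild-type libraries and above 0 in all 3 Ythdf2-/- libraries.

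The genes with the most similar profile to each member over these 6 libraries were found by the same distance, as a description only. Nearest to Ncan were Npas3 (0.0586), Gpc6 (0.0728) and Steap2 (0.0880), and nearest to Bcan were Arhgef12 (0.0441), Fam120c (0.0577) and Znfx1 (0.0682). Cspg5 was nearest to Cyb5b (0.0446), Aacs (0.0508) and Sulf2 (0.0554), and Ptprz1 to Rasgrp2 (0.0495), Fam63b (0.0583) and Rap1gap2 (0.0622). For the members that spread more, the distances were 0.0708 to 0.15 for Vcan (Syt14, Ephb2 and Nr4a1), 0.103 to 0.128 for Tnc (Pmaip1, Adamts3 and Tmem123) and 0.187 to 0.290 for Tnr (Zfp804a, Oprl1 and Lims2). The median distance to all genes tested ran from 0.338 for Ptprz1 to 1.56 for Tnr.

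Another set of values, the deposited FPKM, rests on far fewer reads, with 23.1 to 68.9 expected counts per library for Ncan and 24.6 to 49.0 for Ptprz1. Ncan had 19.1, 12.3 and 12.99 FPKM in wild type and 25.5, 23.4 and 36.7 FPKM in Ythdf2-/-, again with no overlap. Ptprz1 had 17.5, 14.9 and 13.4 FPKM in wild type and 20.8, 20.1 and 24.5 FPKM in Ythdf2-/-, without overlap here although its raw counts overlapped. Bcan, with 11 to 28 expected counts per library, had 25.8, 14.3 and 12.7 FPKM in wild type and 18.2, 31.4 and 30.0 FPKM in Ythdf2-/-, and overlapped. Cspg5 and Tnc rested on 3 to 16 and 3 to 10 expected counts, Vcan, Tnr and Acan on 0 to 4, and Hapln1 was listed at 0 in all 6 libraries. No direction can be read for these 6 genes at that depth.

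The other genes of the pathway were taken as 7 lists of 83 genes. Of the 69 tested, 39 were higher in Ythdf2-/- and 30 lower, and the median log2 fold change was 0.03. By edgeR's test 5 of them had an unadjusted p under 0.05, 3 higher and 2 lower, or 7.25% against 3.63% of all genes, and 0 had an adjusted p under 0.05. The groups did not overlap in 9 (13.04%, against 10.2% of all genes). In the fit without wild-type replicate 3, 37 were higher and 32 lower, and 10 (14.49%) had an unadjusted p under 0.05, against 16.6% of all genes.

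Of the 12 enzymes that build the chondroitin sulfate chain, 9 were higher and 3 lower in Ythdf2-/-, 0 had an unadjusted p under 0.05, and the median log2 fold change was 0.06. When wild-type replicate 3 was left out the list turned, with 5 higher, 7 lower and a median of -0.01. The most abundant per length were B3gat3 (log2 fold change -0.10), which completes the linker to the core protein, Xylt1 (0.31), which starts it, and Fam20b (0.14), a kinase of the linker. Without that library Xylt1 was at -0.09 and Fam20b at -0.01. Of 9 sulfotransferases and epimerases tested, 5 were higher and 4 lower, with 0 at that threshold. Chst11, a chondroitin 4-O-sulfotransferase, had 129, 120 and 70.2 CPM in wild type and 166, 95.7 and 176 CPM in Ythdf2-/-, which overlap. Chst7 (0.51) was at 6.68 CPM in wild-type replicate 3 and 56.4 to 82.2 CPM elsewhere, and Ust (-0.40) was at 62.3 CPM there and 21.2 to 29.4 CPM elsewhere. Without that library the log2 fold change of Chst7 was -0.0038 and that of Ust 0.24.

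Hyaluronan, the chain to which lecticans attach, was represented by 8 tested genes, 5 higher and 3 lower, with 0 at an unadjusted p under 0.05. Its receptors Cd44 and Hmmr and the hyaluronidase Hyal2 were the most abundant per length, with log2 fold changes of 0.22, 0.09 and 0.03 for Cd44, Hmmr and Hyal2. Without wild-type replicate 3 these were -0.21, -0.47 and -0.07, with an unadjusted p of 0.0185 for Hmmr (edgeR), and the list had 2 genes higher, 6 lower and a median of -0.15. Hmmr, also a gene of dividing cells, had 6.77 CPM in wild-type replicate 3 against 111 to 183 CPM in the other 5 libraries. Among the other link proteins and tenascins, 3 of 5 were tested and all were low, Hapln4 at 1.37 to 6.93 CPM, Hapln3 at 0.183 to 1.198 CPM and Tnxb at 0.322 to 8.79 CPM. Tnxb had 1.63, 1.53 and 8.79 CPM in wild type and 1.45, 1.04 and 0.322 CPM in Ythdf2-/-, with no overlap (log2 fold change -2.07, unadjusted p = 0.0576, edgeR), and was at -0.75 without wild-type replicate 3. Its reads numbered 19, 20 and 96 in wild type and 17, 14 and 4 in Ythdf2-/-, so the gap between the nearest libraries is within counting error. None of Hapln4, Hapln3 and Tnxb had an unadjusted p under 0.05.

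Of the lectican-cleaving proteases and their inhibitor Timp3, 9 of 10 were tested, 2 higher and 7 lower, with a median log2 fold change of -0.33 that was -0.09 without wild-type replicate 3. Adamts1 had 48.9, 48.5 and 135 CPM in wild type and 25.8, 31.8 and 27.4 CPM in Ythdf2-/-, with no overlap. Its log2 fold change was -1.45 (standard error 0.435, unadjusted p = 0.0147, edgeR) and -0.78 without wild-type replicate 3 (unadjusted p = 0.000650, edgeR). Adamts9 had 50.2, 52.7 and 68.6 CPM in wild type and 37.5, 30.7 and 27.0 CPM in Ythdf2-/-, again with no overlap. Its log2 fold change was -0.85 (standard error 0.194, unadjusted p = 0.00411, edgeR) and -0.70 without that library (unadjusted p = 0.00367, edgeR). Adamts4 overlapped, with 53.0, 52.0 and 104 CPM in wild type and 26.1, 67.8 and 24.5 CPM in Ythdf2-/-. Timp3 had a log2 fold change of -0.21, and 0.23 without wild-type replicate 3.

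Of 14 tested receptors and ligands of the members, 7 were higher and 7 lower. Itgb8, an integrin subunit that pairs with alpha v, had 142, 143 and 185 CPM in wild type and 199, 237 and 199 CPM in Ythdf2-/-, with no overlap (log2 fold change 0.44, standard error 0.162, unadjusted p = 0.0335, edgeR), and 0.58 without wild-type replicate 3. Ptn, encoding pleiotrophin, a ligand of Ptprz1, had 1052, 1031 and 406 CPM in wild type and 1044, 1267 and 1163 CPM in Ythdf2-/-, which overlap. Ptprs, a receptor for chondroitin sulfate chains, and Itgb1 had log2 fold changes of 0.03 and -0.04, both smaller than their standard errors, and 0.47 and -0.26 without wild-type replicate 3.

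The other proteoglycans, 14 tested of 21, had the highest median of the 7 lists, 0.41, with 10 higher and 4 lower, and 0.30 without wild-type replicate 3. Cspg4, the proteoglycan NG2 of oligodendrocyte precursors, had 96.8, 94.9 and 89.9 CPM in wild type and 127, 145 and 110 CPM in Ythdf2-/-, with no overlap (log2 fold change 0.44, standard error 0.138, unadjusted p = 0.0176, edgeR). Gpc6, a glypican anchored to the membrane by a lipid, had 32.8, 34.6 and 25.8 CPM in wild type and 43.3, 36.5 and 61.2 CPM in Ythdf2-/-, also with no overlap (log2 fold change 0.60, standard error 0.233, unadjusted p = 0.0409, edgeR). Gpc6 without wild-type replicate 3 was at 0.48 (unadjusted p = 0.0747, edgeR), and Cspg4 at 0.41 (unadjusted p = 0.0199, edgeR). The more abundant Sdc3 (0.58), Gpc1 (0.52) and Agrn (-0.08) overlapped between genotypes, and without that library they were at 0.26, 0.42 and 0.34.

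**Figure D4:**
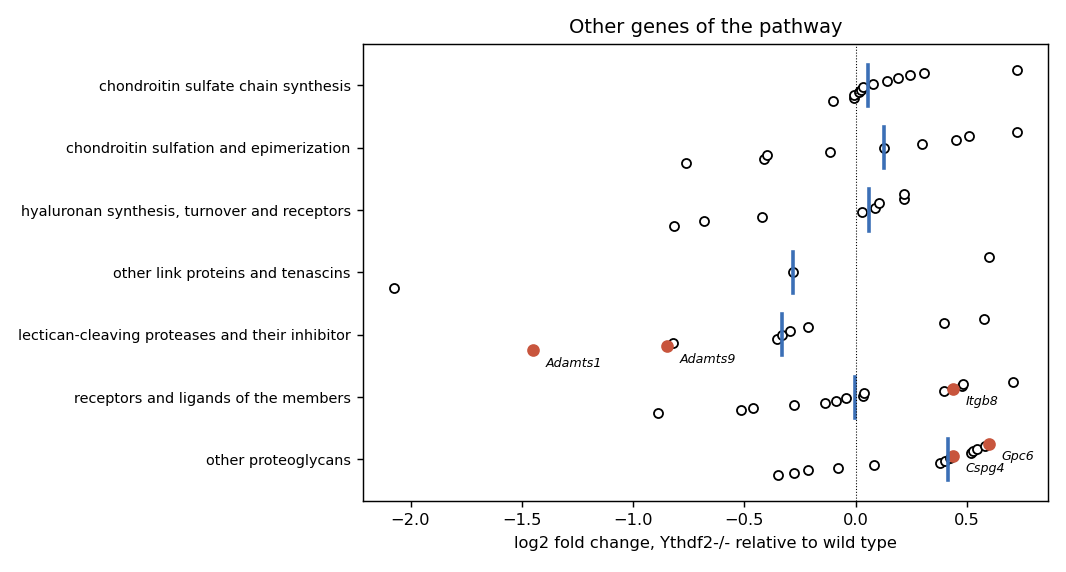
Log2 fold change (Ythdf2-/- relative to wild type, edgeR, 6 libraries) of the 69 tested genes in 7 pathway lists, 1 point a gene, filled and named where the unadjusted p was under 0.05, with a blue bar at the median of each list. The named genes are Adamts1 and Adamts9 on the lower side and Itgb8, Cspg4 and Gpc6 on the higher side.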

How the data were processed

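Input RNA-seq libraries of 3 wild-type and 3 Ythdf2-/- neurosphere samples were analysed, grouped by the sample labels. The 6 m6A-IP samples were not analysed here. The authors fragmented mRNA, prepared strand-specific libraries and deposited raw counts, whole reads per gene. The submitters' processing notes name mm10, Bowtie2 2.2.9, RSEM 1.2.15 and featureCounts, while the study's methods name TopHat and Cuffnorm. The strand setting and the handling of multiply mapped reads are not given in the sources used here. The authors also deposited expected counts, TPM and FPKM per library. Expected counts summed to 1.97% to 2.40% of the raw counts, and TPM was not used.

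From the raw counts, edgeR 4.0.16 in R 4.3.3 (TMM factors of 0.988 to 1.03, filterByExpr, glmQLFit with the robust option, glmQLFTest) tested 13112 genes for genotype alone, and p-values were adjusted over all of them by Benjamini-Hochberg. A check on simulated counts came first. Those counts held no outlying library and less spread between libraries than these data, so the check does not show how the test behaves here. CPM used TMM-scaled library sizes. RPKM divided CPM by the mean deposited transcript length. Log2 CPM for profiles used a prior count of 2. FPKM was tested with limma 3.58.1 on log2(FPKM + 1), a scale that understates changes of low genes. DESeq2 1.42.0 and limma-voom were alternatives. Positions and overlaps came from GRCm38.p6. Other work used Python 3.11.15, numpy 2.4.6, pandas 2.3.3, scipy 1.17.1 and matplotlib 3.10.9.

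The members and lists were chosen with earlier results of these data known. Genes named were Ythdf2, the 9 members, the 3 genes of each pathway list and 2 of each marker list with the highest RPKM, pathway genes with an unadjusted p under 0.05, and the 3 nearest profiles per member. The Y-linked genes, Dcx and the further neural progenitor and neuronal markers given for wild-type replicate 3 are exceptions. Alternatives covered normalization, filter, test, a Y-linked term, the replicate block, the values used, gene length and leaving out each library.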

Additional observations from a re-analysis of the deposited data

How the results depend on the processing

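The 7 tested members had 112 comparisons of a log2 fold change with an alternative, of which 90 kept direction and side of an unadjusted p of 0.05, 6 lost that threshold, 6 gained it and 10 changed sign. Of those 10, 5 were on FPKM, for Vcan, Cspg5 and Tnr, where the depth shows no direction. Ncan and Bcan stayed above 0 in all 16 alternatives each, and Ptprz1 did too but fell to 0.0002 without Ythdf2-/- replicate 3. Vcan was at 0.0274 with limma on log2(FPKM + 1), and its range over the left-out libraries was -1.07 to 0.33. Cspg5 was at -0.40 and -0.45 with pseudocounts of 1 and 0.1 on FPKM, and at 0.09 to 0.50 in the alternatives on counts. Tnc turned to 0.28 with the Y-linked term and ran from -0.81 to 0.0311 over the left-out libraries. Tnr turned to 0.83 with limma-voom quality weights, which gave wild-type replicate 3 a weight of 0.0957, was at 0.28 and 1.06 on FPKM, and ran from -2.17 to 0.84 over the left-out libraries. The cause was not tested.

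Genes with an adjusted p under 0.05 numbered 31 with DESeq2, 151 with quality weights, 13 with the Y-linked term, 1 with RLE, without a filter or with at least 10 counts in every library, 2 and 1 on FPKM, and 0 to 2 with 1 library left out. Genes with an unadjusted p under 0.05 numbered 3683 (28.1% of those tested) with quality weights, 1436 (11%) with the Y-linked term, 620 (3.35%) without a filter, 412 (2.88%) and 398 (2.78%) on FPKM, and 247 to 2207 (1.85% to 16.6%) with 1 library left out, the highest without wild-type replicate 3. Members with an unadjusted p under 0.05 numbered 2 without a filter (Hapln1 added), 3 with quality weights, 3 with the Y-linked term, 0 on FPKM at both pseudocounts, and 0 to 3 with 1 library left out, where leaving out Ythdf2-/- replicate 3, or replicate 1 or 2 of wild type, gave 0 and leaving out wild-type replicate 3 gave 3. Members whose groups did not overlap numbered 2 without a filter, 2 on FPKM at both pseudocounts, and 1 to 3 with 1 library left out, with 3 without wild-type replicate 3 or Ythdf2-/- replicate 2. The groups did not overlap in 9.25% of all genes without a filter, 6.29% on FPKM, 38.9% without wild-type replicate 3, 22.2% without Ythdf2-/- replicate 2 and at most 16.0% without 1 of the other libraries.

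With the replicate block, 183 genes (1.40% of those tested) and 0 members had an unadjusted p under 0.05, and Ncan was at 0.61 (unadjusted p = 0.0765, edgeR). The deviations of same-numbered samples from their group means correlated at -0.25, -0.24 and -0.39 for numbers 1, 2 and 3. Those of samples with other numbers correlated at -0.19 to 0.40. With 3 libraries a group and wild-type replicate 3 far apart, these values cannot show whether samples of 1 number share a litter or batch. Low depth limits Acan and Hapln1, and the FPKM values of all 9 members.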
